A study of Homo sapiens with 12 samples.

Results

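Described here are 39 genes of the ATF4 programme and of cytosolic tRNA charging in a human colon cancer line and its drug-resistant derivative. They were chosen by symbol, with the older names of the tRNA synthetases, and all 39 are among the 25540 genes listed in both deposited tables. They comprise 12 synthetases known as ATF4 targets, 6 other cytosolic synthetases, 9 enzymes of serine, one-carbon, asparagine and proline synthesis, 6 ATF and C/EBP factors, and 6 stress effectors or secreted and surface targets. RNA was sequenced from 12 libraries in 4 groups of 3. LS411N is a colon cancer line that is not resistant to BRAF inhibitors, and LS411N-BR is a resistant line kept in 4 µM BRAF inhibitor, which LS411N did not receive. All 4 groups carried a tet-inducible hairpin RNA against MUC1 with puromycin resistance. In each line 1 group received 500 ng/ml doxycycline, labelled MUC1-C knockdown, and the other received none and is labelled control, with DMSO as vehicle. The study asked, by its title, whether targeting MUC1-C makes colorectal cancer cells sensitive to BRAF inhibition. No group lacked the hairpin, so effects of the hairpin and of doxycycline itself cannot be told apart, and neither can line and inhibitor. The libraries of a group came from triplicate cultures. The labels do not say how independent these cultures were, so p-values measure only the spread between these samples, which may be technical.

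ATF4 is a transcription factor whose protein is made when phosphorylation of eIF2 slows general translation, as in amino acid shortage or stress of the endoplasmic reticulum or mitochondria. It binds C/EBP-ATF response elements, often with a C/EBP partner, and switches on genes for amino acid synthesis, amino acid import and tRNA charging, together with feedback genes such as TRIB3 and the stress factor DDIT3. Aminoacyl-tRNA synthetases join each amino acid to its tRNA, and only some of the cytosolic ones are known ATF4 targets, so the others serve as a comparison within 1 family. ATF4 itself is controlled largely in translation, which RNA levels do not show.

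Values are TPM (transcript abundance scaled by gene length and library total) divided by a factor for each library found by median of ratios, called rescaled TPM below. Tests are from limma on log2(rescaled TPM + 1), per line, with Benjamini-Hochberg adjustment over all genes tested, and a gene is called at an adjusted p under 0.05. The scale understates changes of low genes. Values after ± are SDs over the 3 libraries of a group. Replicate 3 of LS411N without doxycycline stood apart: its log2 differences to both other libraries of its group had SDs of 0.221 and 0.225, where all remaining replicate pairs had 0.093 to 0.122, and its share of short RNA was 46.9% against 57.6% and 57.5%. Of 10 colon epithelial markers 9 passed the filter, while CDX1 was at or near 0 in every library. With doxycycline 6 of the 9 were called higher in LS411N and 7 in LS411N-BR, and none lower, beside 19.0% and 33.5% of all genes called higher. With TPM as deposited 5 and 9 were higher, beside 9.75% and 56.1% of all genes. KRT20 rose most, 4.64-fold in LS411N and 5.1-fold in LS411N-BR. Of 14 fibroblast, endothelial and immune markers, 12 were under 1 rescaled TPM in all 12 libraries. The exceptions were LUM, at or under 2.86, and CD68, a macrophage marker that encodes a lysosomal protein. CD68 averaged 8.10 rescaled TPM without and 19.0 with doxycycline in LS411N, and 35.5 and 62.7 in LS411N-BR. The 14 markers summed to 8.04 to 8.97 and 19.3 to 20.7 rescaled TPM without and with doxycycline in LS411N, and to 35.4 to 39.3 and 64.5 to 66.8 in LS411N-BR. Without CD68 they summed to between 0.52 and 3.48 in every library. The part of these markers in the results below was not tested.

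MUC1, the target of the hairpin (GRCh38, chr1:155185824-155192916, minus strand), fell in both lines. In LS411N it stood at 5.44, 7.05 and 4.12 rescaled TPM without doxycycline and at 0.974, 0.817 and 1.03 with it (log2 fold change -1.73, SE 0.15, limma adjusted p = 6.3e-05). In LS411N-BR it stood at 3.88, 3.84 and 4.44 without and at 0.593, 0.357 and 0.393 with doxycycline (log2 fold change -1.80, SE 0.07, limma adjusted p = 5.5e-08). The groups did not overlap in either line, and the difference of the effects was -0.07 (SE 0.18, limma adjusted p = 0.84). Mean rescaled TPM without the added 1 fell 5.89-fold in LS411N and 9.05-fold in LS411N-BR. The added 1 narrows this gap at such low levels, so the test does not show that silencing was equal in the lines.

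The programme responded unevenly to doxycycline. In bulk RNA, fewer cells of a kind and less RNA per cell cannot be told apart. In LS411N few of its genes moved, apart from marked falls of the tryptophan and aspartate synthetases WARS and DARS. In LS411N-BR most of the serine and one-carbon enzymes and of the ATF4-driven synthetases fell, mostly by less than 1.5-fold, while HARS, KARS and RARS, synthetases outside the ATF4-driven group, rose in both lines. The falls of most of the ATF4-driven synthetases were not called with TPM as deposited. In LS411N 38 members passed the filter on low values, 6 were higher and 5 lower, which is 28.9% called against 34.5% of all 11358 genes tested (19.0% higher and 15.5% lower). This share is near the background. By at least 1.5-fold, 0 were higher (2.69% of all genes) and 2 lower, WARS and DARS (1.94%). In LS411N-BR 37 passed, 5 were higher and 22 lower. The lower calls made up 59.5% of the members against 31.3% of all 11243 genes, and the higher calls 13.5% against 33.5% (64.7% of all genes were called in 1 direction or the other). By at least 1.5-fold, 0 were higher (3.59% of all genes) and 4 lower, WARS, DARS, PSAT1 and NUPR1 (3.12%). The median log2 fold change of the members was 0.02 in LS411N and -0.14 in LS411N-BR, beside 0.02 and 0.01 over all genes. In both lines 4 members were called higher (HARS, KARS, RARS and ATF3) and 5 lower (WARS, DARS, QARS, ATF5 and NUPR1), with none called in opposite directions among the 37 tested in both. These are 10.8% and 13.5% of the members, near the 16.3% and 13.3% of all 10928 genes tested in both lines. In LS411N WARS and DARS were called in every setting tried, and HARS in all but TPM as deposited, where WARS, DARS, NUPR1 and ATF3 were the members called. The calls of YARS, QARS, RARS, ATF5, CEBPG, ATF3, NUPR1 and KARS in LS411N were each lost on leaving out at least 1 library (limma adjusted p up to 0.13). In LS411N-BR 11 lower and 4 higher calls were made in every setting, and 19 and 4 in all but TPM as deposited.

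The difference between the lines was tested directly, as the doxycycline effect in LS411N-BR minus that in LS411N over all 12 libraries. It was below 0 for 32 of 38 members and called for 14, all lower in LS411N-BR. At an unadjusted p under 0.05, 21 were lower and 1, DDIT3, was higher, but the share over all genes at that threshold was not counted. The 14 calls are 36.8% of the members, against 5.81% of all 11674 genes called lower, 4.37% called higher and 10.2% called in all. By at least 1.5-fold, 0 were higher (0.642% of all genes) and 3 lower, WARS, PSAT1 and NUPR1 (0.959%). The median difference was -0.18 for the members and -0.01 for all genes. The 14 were WARS, GARS, EPRS, MARS, NARS, SARS, DARS, VARS, PSAT1, PHGDH, SHMT2, MTHFD2, CEBPB and NUPR1. Of these, WARS, MARS, SARS, DARS, PSAT1, SHMT2, MTHFD2 and CEBPB were called whichever library was left out. The calls of GARS, EPRS, NARS, VARS, PHGDH and NUPR1 were lost in 11, 9, 10, 7, 7 and 8 of 12 such fits, with limma adjusted p from 0.05 to 0.10. Between 8 and 18 members were called lower when each library was left out in turn. The count was 8 without replicate 1 or 2 of LS411N-BR without doxycycline or replicate 3 with it. It was 9 without replicate 1 of LS411N without or with doxycycline or replicate 1 of LS411N-BR with it, and 18 without replicate 3 of LS411N without doxycycline.

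These directions rest on the rescaling between libraries. With TPM as deposited, the median log2 fold change of all genes moved to 0.18 in LS411N-BR, 0.08 in LS411N and 0.11 for the difference, and calls over all genes became 6351 higher and 1252 lower in LS411N-BR. In LS411N they became 1100 higher and 387 lower, and for the difference 162 higher and 85 lower. On that scale 13 members were higher and 11 lower in LS411N-BR, with a median of 0.05, below the median of all genes. These are 35.1% and 29.7% of the members, beside 56.1% and 11.1% of all genes. The lower calls of EPRS (-0.02, limma adjusted p = 0.80), SARS (-0.13, 0.057), VARS (-0.15, 0.052), PSPH (-0.12, 0.073), ATF5 (-0.14, 0.083) and STC2 (-0.11, 0.18) in LS411N-BR were lost on that scale, and 7 further members changed sign. WARS alone kept its call for the difference. Changes given below are on the rescaled scale unless stated. The plot of fitted effects by gene shows both lines and their difference.

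**Figure D1:**
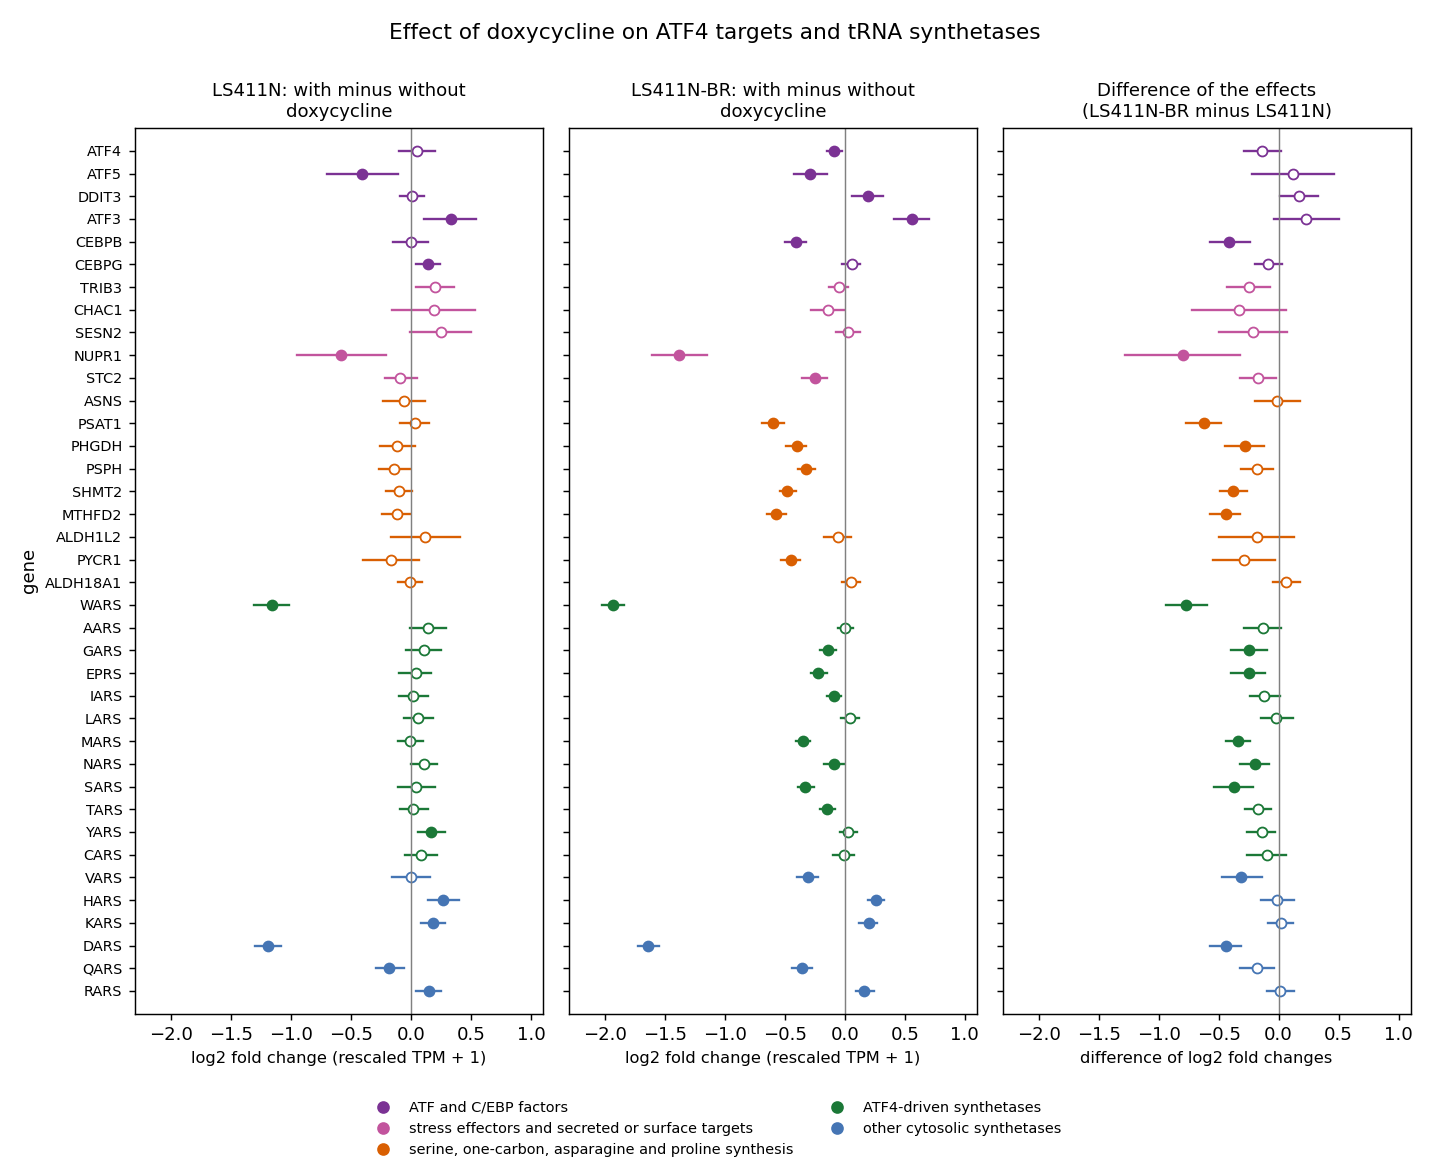
Fitted log2 fold change (rescaled TPM + 1) with doxycycline for the 38 members that passed the filter in at least 1 comparison, in LS411N (left) and LS411N-BR (middle), and the difference of the effects (right), from limma on 3 libraries per group. Bars are 95% intervals, filled points are called at an adjusted p under 0.05, and colours are the gene groups. WARS and DARS lie far to the left in both lines, and most serine and one-carbon enzymes lie to the left in LS411N-BR, where 6 are called. With TPM as deposited GARS, IARS, NARS, TARS, CARS, ATF4 and TRIB3 lie above 0 in LS411N-BR.

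Among the 12 ATF4-driven synthetases, WARS changed most. WARS charges tRNA with tryptophan and is also known as an interferon-induced gene (GRCh38, chr14:100333788-100376805, minus strand). In LS411N its level was 45.3, 50.9 and 47.3 rescaled TPM without doxycycline and 22.5, 20.1 and 19.8 with it, 2.30-fold lower (log2 fold change -1.16, SE 0.07, limma adjusted p = 6.3e-06). In LS411N-BR it was 66.3, 63.8 and 65.6 without and 16.01, 15.7 and 17.4 with doxycycline, 3.99-fold lower (log2 fold change -1.93, SE 0.04, limma adjusted p = 1.4e-09). No library overlapped with the other group in either line. The fall was larger in LS411N-BR, with a difference of -0.77 (SE 0.08, limma adjusted p = 8.2e-05). WARS was called in every setting tried in all 3 comparisons.

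The other 11 ATF4-driven synthetases moved little in LS411N. YARS, which charges tyrosine, was the only one called, from 80.4 ± 2.11 to 90.6 ± 2.58 rescaled TPM (mean ± SD, n = 3, log2 fold change 0.17, SE 0.05, limma adjusted p = 0.022, and 0.056 to 0.082 in the 4 of 6 fits without 1 library that lost the call). In LS411N-BR 7 of the 11 fell (GARS, EPRS, IARS, MARS, NARS, SARS and TARS) and none rose, with log2 fold changes from -0.35 to -0.09 among those called. Of all genes 31.3% were lower and 33.5% higher there. Over all 12 the median was 0.05 in LS411N and -0.12 in LS411N-BR.

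MARS and SARS, the methionine and serine synthetases, had the largest falls after WARS in LS411N-BR. MARS stood at 61.3, 61.1 and 60.1 rescaled TPM without doxycycline and at 47.5, 47.8 and 47.2 with it in LS411N-BR (log2 fold change -0.35, SE 0.03, limma adjusted p = 2.8e-06). In LS411N it stood at 63.1, 65.7 and 66.5 without and at 66.1, 63.2 and 64.7 with doxycycline (log2 fold change -0.01, SE 0.05, limma adjusted p = 0.89). The groups were apart in LS411N-BR and overlapped in LS411N, and the difference was -0.34 (SE 0.05, limma adjusted p = 0.00058). SARS went from 33.1 ± 0.536 to 26.2 ± 0.466 in LS411N-BR (log2 fold change -0.33, limma adjusted p = 8.5e-06). Its effect also differed between the lines, by -0.37 (SE 0.08, limma adjusted p = 0.0085). The MARS gene overlaps DDIT3 and ARHGAP9 on the opposite strand, and it is not known whether reads were counted by strand.

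GARS and EPRS, for glycine and for glutamate and proline, fell in LS411N-BR by 0.14 and 0.22 on the log2 scale, with a difference between lines of -0.25 for each (limma adjusted p = 0.039 and 0.028). NARS, for asparagine, fell by 0.09 (limma adjusted p = 0.04, and 0.062 to 0.072 without the intensity trend, with no filter or with 1 fit over all 12 libraries), and its difference was -0.20 (limma adjusted p = 0.039). Without 1 library the fall of NARS was lost in 5 of 6 fits (limma adjusted p up to 0.13). IARS and TARS, for isoleucine and threonine, fell by 0.09 and 0.15. Their differences of -0.12 and -0.17 were not called, except without replicate 3 of LS411N without doxycycline (limma adjusted p = 0.016 and 0.0049). With TPM as deposited GARS, IARS, NARS and TARS reversed, to 0.06, 0.11, 0.11 and 0.05, and EPRS stood at -0.02. AARS, LARS, YARS and CARS, for alanine, leucine, tyrosine and cysteine, were not called in LS411N-BR, with log2 fold changes from -0.01 to 0.04. As deposited, all 4 were called higher there, at 0.20, 0.24, 0.23 and 0.17 (limma adjusted p = 0.0021, 0.00035, 0.00069 and 0.019). All 12 differences lay below 0, from -0.77 to -0.02, with a median of -0.19. Of these 6 were called, beside 5.81% of all genes called lower. As deposited 9 of the 12 lay below 0, with a median of -0.06, and WARS was the only one called.

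The 6 other cytosolic synthetases split in direction. DARS, the aspartate synthetase (GRCh38, chr2:135906677-135986100, minus strand), fell in both lines. In LS411N it stood at 36.6, 36.2 and 36.2 rescaled TPM without doxycycline and at 14.7, 15.2 and 16.1 with it, 2.37-fold lower (log2 fold change -1.19, SE 0.05, limma adjusted p = 1.4e-06). In LS411N-BR it stood at 41.4, 41.7 and 45.5 without and at 13.2, 13.1 and 13 with doxycycline, 3.27-fold lower (log2 fold change -1.64, SE 0.04, limma adjusted p = 2e-09). The groups were far apart in both lines, and the fall was larger in LS411N-BR by 0.44 on the log2 scale (limma adjusted p = 0.00057). DARS-AS1 lies on the opposite strand of DARS, so its reads could be mixed in where strand was not used.

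HARS, KARS and RARS, for histidine, lysine and arginine, rose in both lines. HARS went from 36.6, 36.6 and 32.8 to 44.1, 42.6 and 41.5 rescaled TPM in LS411N, and from 25.7, 27.1 and 26.3 to 31.9, 31.4 and 31.7 in LS411N-BR. Every library with doxycycline lay above every library without it in its line, with log2 fold changes of 0.27 and 0.26 (SE 0.06 and 0.03, limma adjusted p = 0.0073 and 5.1e-05). KARS rose by 0.18 and 0.20 on the log2 scale (limma adjusted p = 0.012 and 0.0005) and RARS by 0.15 and 0.16 (limma adjusted p = 0.037 and 0.0019). In LS411N the call of RARS was lost in 5 of 6 fits without 1 library. The differences between lines of these 3 genes were from -0.01 to 0.02, and the 95% intervals of HARS (-0.15 to 0.13), KARS (-0.09 to 0.12) and RARS (-0.10 to 0.13) bound them. QARS, which charges tRNA with glutamine, fell in both lines. It went from 47.2 ± 2.22 to 41.6 ± 1.19 in LS411N and from 55.9 ± 1.32 to 43.4 ± 1.87 in LS411N-BR (log2 fold changes -0.18 and -0.36, limma adjusted p = 0.028 and 2.2e-05). VARS, for valine, fell in LS411N-BR from 4.18 ± 0.0785 to 3.18 ± 0.0421 (log2 fold change -0.31, limma adjusted p = 7.6e-05), and its difference between the lines was -0.31 (limma adjusted p = 0.024).

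Read side by side, 8 of the 12 ATF4-driven synthetases were called lower in LS411N-BR and none higher, against 3 lower and 3 higher of the 6 others, beside 31.3% lower and 33.5% higher of all genes. The medians were -0.12 and -0.07. As deposited, the balance of the ATF4-driven group turned, to 2 lower (MARS and WARS) and 4 higher (AARS, CARS, LARS and YARS) with a median of 0.08. The 6 others then had 2 lower and 3 higher with a median of 0.10, beside 11.1% lower and 56.1% higher of all genes. Leaving out WARS and DARS, the largest change of each group, the medians were -0.09 over 11 genes and 0.16 over 5. For the difference between lines 6 of 12 and 2 of 6 were called, all lower, with medians of -0.19 and -0.10. Of all genes 5.81% were called lower for the difference. VARS is also reported as an ATF4 target in some systems. Counted with the ATF4-driven group, it made 9 of 13 lower in LS411N-BR against 2 of 5 among the others. No list was tested, so nothing here sets the groups apart beyond these counts. In LS411N 2 of the 12 and 5 of the 6 were called, beside 34.5% of all genes (19.0% higher and 15.5% lower). That contrast moved with single libraries, since between 1 and 5 of the 12 were called when a library was left out and between 2 and 5 of the 6. Without replicate 3 of LS411N without doxycycline, 10 members were higher and 6 lower in that line. Leaving out replicate 1 or 2 of that group gave 3 and 4 higher with 4 and 2 lower. Leaving out replicate 1, 2 or 3 with doxycycline gave 3, 1 and 2 higher with 3, 2 and 2 lower.

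**Figure D2:**
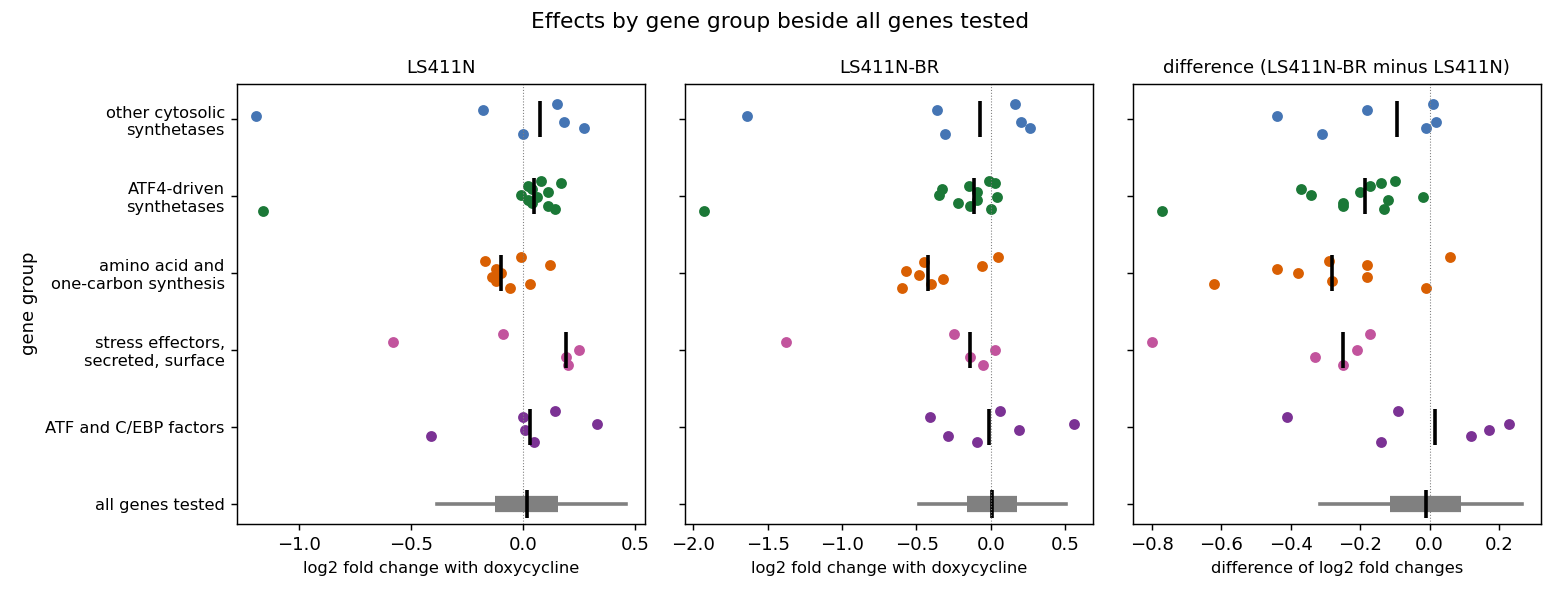
Log2 fold change with doxycycline in LS411N and LS411N-BR, and the difference of the effects, for each member (points) by gene group, with the group's median as a black bar. The grey bar spans the middle 50% and the grey line the middle 90% of all genes tested. In LS411N-BR the serine and one-carbon group has its median at -0.43, furthest from the median of all genes, and all 12 ATF4-driven synthetases lie below 0 in the difference (9 of 12 with TPM as deposited).

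Promoters of the ATF4-driven synthetases often hold the letters of a C/EBP-ATF response element. The element was searched as TGATGNAA and as its reverse complement TTNCATCA in the RefSeq promoters of GRCh38.p14, from 250 bases before to 50 bases after the gene start. It was present in 1270 of 35116 promoters (3.62%), in 9 of the 30 members with an entry (30.0%), in 6 of 10 ATF4-driven synthetases (60.0%) and in 0 of 4 other synthetases with an entry. The members without an entry are LARS, YARS, VARS, DARS, PSPH, SHMT2, ALDH1L2, PYCR1 and NUPR1. The 9 matches are shown because 6 of them lie in ATF4-driven synthetases and none in the other synthetases with an entry. Each is given 5′ to 3′ on the strand of the gene, with 10 bases on either side and the element in capitals. All lie in GRCh38.p14.
AARS (chr16:70289676-70289703, minus): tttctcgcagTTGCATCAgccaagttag
IARS (chr9:92293693-92293720, minus): tttcagcgcgTTGCATCAcctccgtgcg
MARS (chr12:57488054-57488081, plus): ccggttccggTTGCATCAgcgagggatt
NARS (chr18:57621805-57621832, minus): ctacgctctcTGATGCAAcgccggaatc
TARS (chr5:33440957-33440984, plus): cgcctttcgaTTGCATCAgctggtccag
CARS (chr11:3057408-3057435, minus): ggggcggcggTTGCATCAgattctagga
ASNS (chr7:97872459-97872486, minus): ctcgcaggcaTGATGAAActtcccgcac
ATF3 (chr1:212565206-212565233, plus): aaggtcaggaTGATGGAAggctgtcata
CHAC1 (chr15:40953252-40953279, plus): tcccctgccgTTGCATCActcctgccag

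All 6 synthetase matches and that of CHAC1 share the letters TTGCATCA on 1 strand or the other, while ASNS has TGATGAAA and ATF3 TGATGGAA. A match describes letters in a window and is no binding site by itself, and a window without a match says nothing about the factor. In LS411N-BR, of the 6 ATF4-driven synthetases with a match 4 were lower, with a median log2 fold change of -0.09. Of the 4 with an entry but no match (WARS, GARS, EPRS and SARS) all 4 were lower, with a median of -0.27. As deposited, the first 6 had 1 lower and 2 higher, and of these 4 only WARS was lower. Over all genes in LS411N-BR 31.3% were lower and 33.5% higher, and as deposited 11.1% and 56.1%. ATF3, with a match, rose in both lines.

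Most enzymes of serine, one-carbon and proline synthesis fell in LS411N-BR, and the effect differed between the lines for 4 of 9. All 4 differences were lower, beside 5.81% of all genes called lower. With TPM as deposited 0 of the 9 differences were called, beside 0.728% of all genes called lower. None of the 9 was called by limma in LS411N (0 higher and 2 lower, PSPH and MTHFD2, at an unadjusted p under 0.05), where their log2 fold changes ran from -0.17 to 0.12 with a median of -0.10. Of all genes 34.5% were called in that line. PYCR1 (lower) and ALDH1L2 (higher) were each called there without replicate 3 of LS411N without doxycycline (limma adjusted p = 0.00054 and 0.03). With 1 fit over all 12 libraries PSPH, SHMT2 and MTHFD2 were called lower in LS411N (-0.14, -0.10 and -0.12, limma adjusted p = 0.019, 0.048 and 0.03). In LS411N-BR 6 of the 8 that passed the filter fell and none rose, with a median of -0.43 (-0.23 as deposited, where 5 were lower and 1 higher). Of all genes 31.3% were lower and 33.5% higher there, and as deposited 11.1% and 56.1%. Falls in serine synthesis concerned all 3 enzymes of the pathway from 3-phosphoglycerate, PHGDH, PSAT1 and PSPH.

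PSAT1, the aminotransferase of that pathway (GRCh38, chr9:78297143-78330093, plus strand), fell most. In LS411N-BR it was at 242.1, 231.5 and 250.8 rescaled TPM without doxycycline and at 155.3, 165.7 and 156.6 with it (log2 fold change -0.60, SE 0.04, limma adjusted p = 1.1e-06). In LS411N it was at 221.6, 231.8 and 210.8 without and at 218.9, 228.0 and 229.5 with doxycycline (log2 fold change 0.03, SE 0.05, limma adjusted p = 0.73). The groups were apart in LS411N-BR and overlapped in LS411N, and the difference was -0.62 (SE 0.07, limma adjusted p = 9.1e-05). PHGDH, the first enzyme, fell in LS411N-BR from 68.3 ± 0.649 to 51.4 ± 2.46 (log2 fold change -0.40, limma adjusted p = 9.7e-06), with a difference between lines of -0.28 (limma adjusted p = 0.032). PSPH, the phosphatase of the last step, fell from 43.7 ± 0.579 to 34.8 ± 0.934 in LS411N-BR (log2 fold change -0.32). Its difference of -0.18 was not called (limma adjusted p = 0.086).

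SHMT2 and MTHFD2, the mitochondrial enzymes that take a carbon from serine into the folate cycle, fell together in LS411N-BR. MTHFD2 was at 122.3, 119.2 and 119.9 rescaled TPM without doxycycline and at 79.9, 84.9 and 78.2 with it (log2 fold change -0.57, SE 0.04, limma adjusted p = 7.5e-07). In LS411N it was at 183.6, 196.4 and 201.6 without and at 178.2, 177.8 and 177.3 with doxycycline (log2 fold change -0.12, SE 0.05, limma adjusted p = 0.093). The libraries did not overlap in either line, and the interval of the difference, -0.57 to -0.32, lay below 0 (estimate -0.44, SE 0.06, limma adjusted p = 0.00046). SHMT2 was at 62.4, 60.5 and 60.9 without and at 44.7, 43.7 and 43.0 with doxycycline in LS411N-BR (log2 fold change -0.48, SE 0.03, limma adjusted p = 6.6e-07). In LS411N it was at 63.5, 66.9 and 64.3 without and at 61.8, 62.0 and 58.0 with doxycycline (log2 fold change -0.10, SE 0.05, limma adjusted p = 0.15). The fall of SHMT2 was also larger in LS411N-BR, by 0.38 on the log2 scale (limma adjusted p = 0.00064). ALDH1L2, a mitochondrial folate dehydrogenase, was low at 1.68 to 4.13 rescaled TPM over the group means and was not called.

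In proline synthesis PYCR1, the last step, fell in LS411N-BR from 30.2 ± 1.24 to 21.8 ± 0.226 (log2 fold change -0.45, limma adjusted p = 3.2e-06). Its difference between the lines, -0.29, was not called (limma adjusted p = 0.16), and 1 library of LS411N without doxycycline, replicate 3, was low at 35.5 against 47.5 in both others. ALDH18A1, an earlier step of the same route, was at 55.8 ± 1.52 and 55.3 ± 0.43 in LS411N and at 83.0 ± 1.99 and 86.2 ± 2.74 in LS411N-BR, and was called only with TPM as deposited, higher in LS411N-BR (0.25, limma adjusted p = 0.00013). ASNS, the asparagine synthetase and a textbook ATF4 target, was low throughout. It averaged 1.51 and 1.42 rescaled TPM in LS411N and 0.826 and 0.747 in LS411N-BR, where it did not pass the filter, and it was not called in LS411N.

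**Figure D3:**
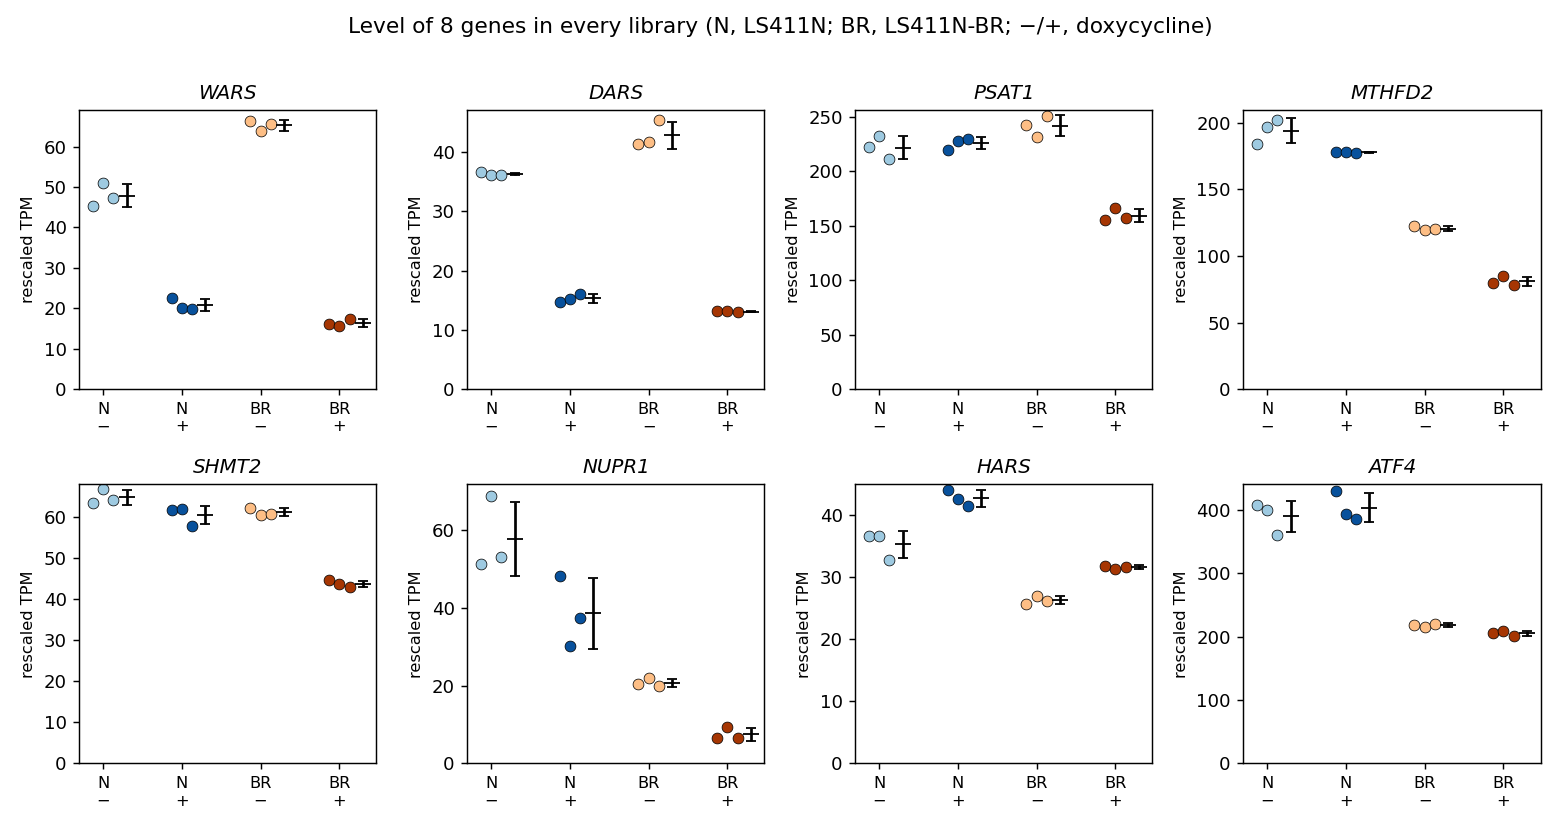
Rescaled TPM of 8 members in each of the 12 libraries (points), with the mean and SD of each group of 3 beside them; N is LS411N, BR is LS411N-BR, and the signs give doxycycline. WARS and DARS fall in both lines, PSAT1, MTHFD2 and SHMT2 are called in LS411N-BR only, HARS rises in both, and ATF4 and NUPR1 stand lower in LS411N-BR than in LS411N.

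Transcripts of ATF4 itself (GRCh38, chr22:39519695-39522685, plus strand) were abundant and moved little. They stood at 407.7, 400.2 and 361.0 rescaled TPM without and at 429.1, 394.1 and 385.9 with doxycycline in LS411N, where the groups overlapped (log2 fold change 0.05, SE 0.07, limma adjusted p = 0.60). In LS411N-BR they stood at 218.8, 215.7 and 220.5 without and at 205.9, 209.2 and 201.3 with doxycycline. That fall of 0.09 on the log2 scale (SE 0.03, limma adjusted p = 0.027) turned to 0.11 with TPM as deposited. It was not called in 4 of 6 fits without 1 library (limma adjusted p = 0.067 to 0.083) or in 1 fit over all 12 libraries (limma adjusted p = 0.17). The difference between lines, -0.14, was not called (limma adjusted p = 0.27).

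CEBPB, a C/EBP partner of ATF4, fell in LS411N-BR. It stood there at 14.9, 13.5 and 14.7 rescaled TPM without and at 10.8, 10.6 and 10.4 with doxycycline (log2 fold change -0.41, SE 0.04, limma adjusted p = 1.7e-05). In LS411N it averaged 27.1 ± 2.20 and 27.0 ± 0.676, and the difference of -0.41 was called (SE 0.08, limma adjusted p = 0.0054). CEBPG, another partner, was called in LS411N and not in LS411N-BR. In LS411N it rose from 33.2 ± 0.483 to 36.8 ± 0.899 (log2 fold change 0.14, limma adjusted p = 0.036). As deposited, it was called in LS411N-BR (0.25, limma adjusted p = 0.00019) and not in LS411N. Its difference of -0.09 was not called.

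ATF3, a stress-induced factor downstream of ATF4, rose in both lines. It stood at 12.02, 10.9 and 9.48 rescaled TPM without and at 12.2, 14.8 and 14.4 with doxycycline in LS411N (log2 fold change 0.33, SE 0.09, limma adjusted p = 0.028, and 0.093 with no filter). In LS411N-BR it stood at 5.68, 5.07 and 5.73 without and at 8.35, 9.43 and 7.87 with doxycycline, 1.56-fold higher (log2 fold change 0.56, SE 0.06, limma adjusted p = 4.3e-05). The groups did not overlap in either line. DDIT3, which encodes the factor CHOP, was at 35.1 ± 0.391 and 35.4 ± 0.605 in LS411N. It rose in LS411N-BR from 9.01, 8.04 and 8.36 to 10.7, 9.48 and 9.19 (log2 fold change 0.19, SE 0.06, limma adjusted p = 0.016, and 0.072 with no filter), and its difference of 0.17 was not called (limma adjusted p = 0.16). Its call in LS411N-BR was lost in 2 of 6 fits without 1 library (limma adjusted p = 0.054 and 0.06). The DDIT3 gene overlaps MARS and MBD6 on the opposite strand. ATF5, a relative of ATF4, fell in both lines, from 6.53 ± 1.46 to 4.61 ± 0.288 and from 3.04 ± 0.0602 to 2.32 ± 0.259. The call in LS411N (limma adjusted p = 0.041) was not made with no filter (limma adjusted p = 0.13).

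Of the stress effectors, NUPR1 changed most. It encodes a small stress-responsive nuclear protein (GRCh38, chr16:28532708-28539174, minus strand). In LS411N it stood at 51.2, 68.6 and 53.0 rescaled TPM without and at 48.2, 30.1 and 37.4 with doxycycline (log2 fold change -0.58, SE 0.16, limma adjusted p = 0.025, and 0.10 with no filter). In LS411N-BR it stood at 20.4, 21.9 and 19.9 without and at 6.496, 9.23 and 6.59 with doxycycline, 2.78-fold lower (log2 fold change -1.38, SE 0.10, limma adjusted p = 2.7e-06). All libraries with doxycycline lay below those without it, with a wide spread in LS411N, and the difference was -0.80 (SE 0.22, limma adjusted p = 0.039). The call for that difference was not made with no filter (limma adjusted p = 0.12) or with robust moderation (limma adjusted p = 0.053).

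STC2, a secreted glycoprotein, fell in LS411N-BR from 2.86 ± 0.104 to 2.23 ± 0.0959 (log2 fold change -0.25, limma adjusted p = 0.0009). TRIB3, a pseudokinase that feeds back on ATF4, averaged 58.2 and 66.8 rescaled TPM in LS411N and 38.1 and 36.7 in LS411N-BR. CHAC1, which degrades glutathione, averaged 17.1 and 19.3 in LS411N and 8.09 and 7.22 in LS411N-BR, and SESN2, a sestrin that senses leucine, 19.0 and 22.5 and then 11.8 and 12.1. None of these 3 was called in any of the 3 comparisons as fitted. TRIB3 reached the threshold in LS411N with a filter of 5 TPM (limma adjusted p = 0.049), a replicate block (limma adjusted p = 0.031), 1 fit over all 12 libraries (limma adjusted p = 0.013) or without replicate 2 of LS411N without doxycycline (0.025), which also brought its difference past it (0.02). SESN2 did so in LS411N with 1 fit over all 12 libraries (limma adjusted p = 0.046). As deposited, TRIB3 and SESN2 were called higher in LS411N-BR (0.15 and 0.22, limma adjusted p = 0.036 and 0.0021). CHAC1 was called lower in LS411N-BR with a filter of 5 TPM, with factors within each table and without either of 2 libraries (limma adjusted p = 0.012 to 0.048). Their differences lay at -0.25, -0.33 and -0.21, with limma adjusted p of 0.072, 0.28 and 0.35 and 95% intervals of -0.43 to -0.07, -0.72 to 0.06 and -0.50 to 0.07. VLDLR, a lipoprotein receptor, was listed at 0 in 11 libraries and at 0.00315 rescaled TPM in the other, and was not tested.

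The levels of the 2 lines are given side by side without a test, since their tables list different numbers of genes and may be scaled over different genes. Most of the programme stood lower in the resistant line. Without doxycycline 28 of 38 members with a level had every LS411N-BR library below every LS411N library, 8 had it above and 2 overlapped. Over all 11384 genes 34.6% lay below and 41.9% above. The median log2 ratio of LS411N-BR over LS411N was -0.46 for the members and 0.04 for all genes. As deposited, 22 lay below and 5 above, beside 2804 below and 3931 above of 11297 genes, with medians of -0.42 and 0.09. With doxycycline 33 lay below, 3 above and 2 overlapped (38.1% and 44.1% of 11406 genes), with a median of -0.62 beside 0.04. As deposited, 27 lay below and 6 above with doxycycline, beside 2684 below and 6442 above of 11472 genes, with medians of -0.43 and 0.21.

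The factors and effectors showed the widest gaps. Without doxycycline DDIT3 was 4.14-fold higher in LS411N than in LS411N-BR, at 35.4, 34.6 and 35.2 rescaled TPM against 9.01, 8.04 and 8.36. NUPR1 was 2.78-fold higher, PHGDH 2.37-fold, ATF5 2.15-fold, CHAC1 2.11-fold and ATF4 1.78-fold. CEBPG was alike, at 33.2 and 33.5. Levels were higher in LS411N-BR for WARS, GARS, IARS, VARS, KARS, DARS, QARS and ALDH18A1, of which 3 are ATF4-driven synthetases and 4 are other synthetases. With doxycycline WARS, VARS and DARS turned to lie below LS411N, GARS and QARS overlapped, and IARS, KARS and ALDH18A1 stayed above. This holds for rescaled levels, where 4 of the 6 other synthetases lay below with doxycycline, against 1 of the 6 as deposited.

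**Figure D4:**
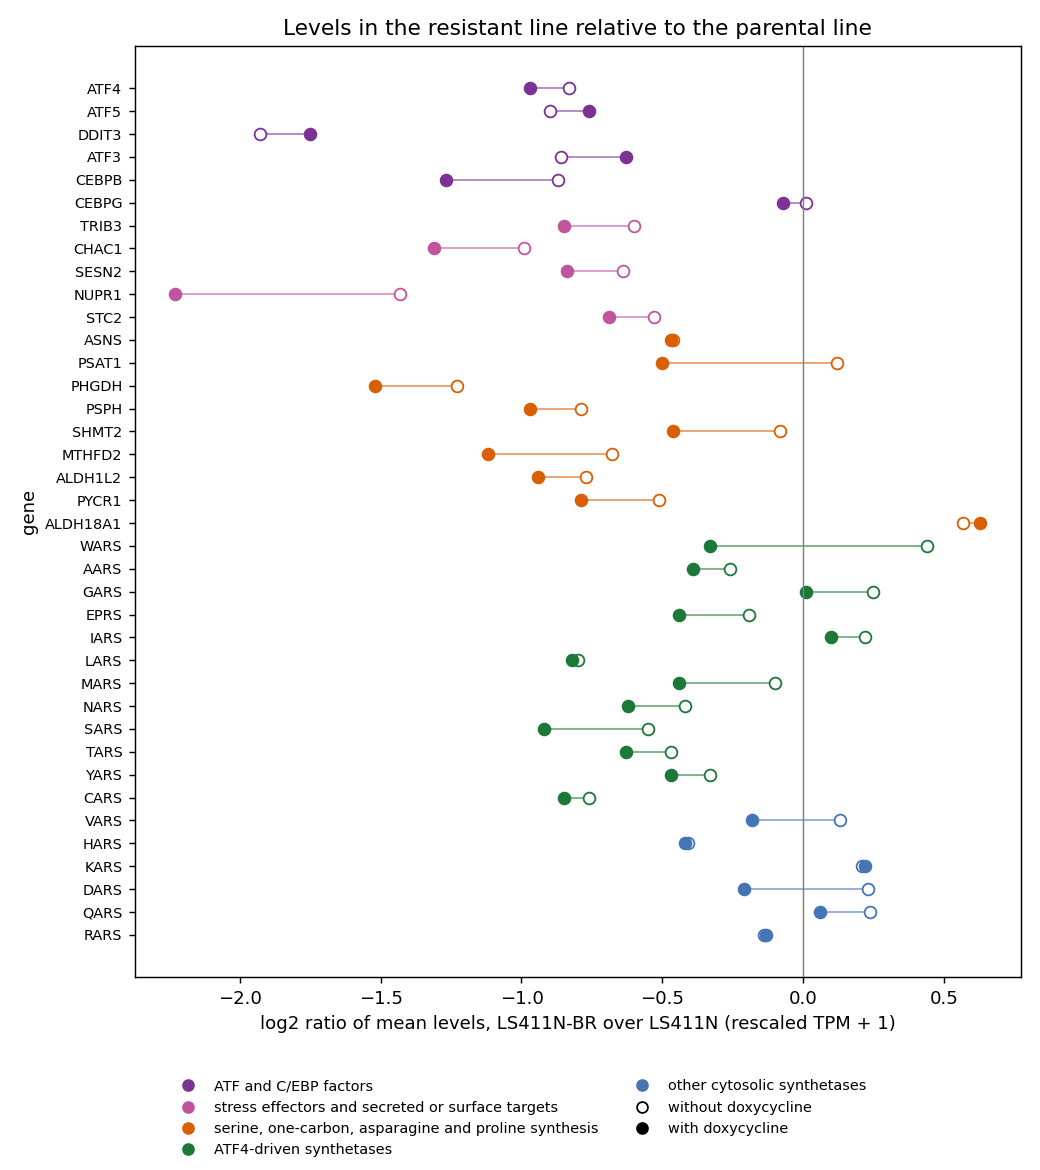
Log2 ratio of mean levels (rescaled TPM + 1), LS411N-BR over LS411N, for 38 members without doxycycline (open circles) and with it (filled circles), coloured by gene group; no test was made between the tables. DDIT3 and NUPR1 lie furthest left and ALDH18A1 furthest right, while WARS, VARS and DARS cross from right to left with doxycycline on this rescaled scale. As deposited, 1 of the 6 other synthetases lies below LS411N in every library with doxycycline.

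Other genes linked to the programme were counted from lists of the same kind. Their counts stand beside 31.3% lower and 33.5% higher of all genes in LS411N-BR, and 15.5% and 19.0% in LS411N. As deposited, these shares were 11.1% and 56.1%, and 3.43% and 9.75%. Of 17 further ATF4 targets that passed the filter, 12 were lower and 3 higher in LS411N-BR, and 2 lower and 6 higher in LS411N. As deposited 4 were lower and 4 higher in LS411N-BR, and 0 and 2 in LS411N. For the difference 9 were lower and 2 higher, with a median of -0.34, and as deposited 3 and 2. Among them GDF15, a secreted stress hormone, rose in LS411N from 118.4 ± 0.422 to 186.0 ± 10.5 rescaled TPM and was at 55.3 ± 3.94 and 56.8 ± 2.49 in LS411N-BR. Its difference was -0.61 (SE 0.08, limma adjusted p = 0.00033, and 0.11 with TPM as deposited, where it was called higher in LS411N-BR too). DDIT4, an inhibitor of mTORC1 signalling, rose by 0.30 in LS411N and fell by 0.43 on the log2 scale in LS411N-BR (difference -0.73, limma adjusted p = 0.0037). Its rise in LS411N was not called with TPM as deposited (limma adjusted p = 0.082), with factors within each table, with no filter, with no trend or in 4 of 6 fits without 1 library (limma adjusted p = 0.05 to 0.16). VEGFA, the angiogenic factor, fell in LS411N-BR from 32.9 ± 0.648 to 18.7 ± 0.438, and HMOX1, the haem-degrading enzyme, rose in both lines.

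Of 9 amino acid transporters tested, 5 fell and 2 rose in LS411N-BR. As deposited, the balance turned, to 2 lower and 4 higher. SLC7A11, the cystine importer, fell there from 21.8 ± 0.565 to 11.2 ± 0.656 rescaled TPM and in LS411N from 48.7 ± 4.01 to 40.5 ± 2.15, with a difference of -0.64 (SE 0.08, limma adjusted p = 0.0004). The call in LS411N was lost as deposited (limma adjusted p = 0.46), with no filter and in 3 of 6 fits without 1 library (limma adjusted p = 0.054 to 0.071). SLC1A4, which carries serine and alanine, fell in LS411N-BR by 0.58 on the log2 scale and differed between lines by -0.58 (limma adjusted p = 0.00012, and 0.10 as deposited). SLC7A5, the leucine importer, rose in both lines, by 0.32 and 0.23, though in LS411N not as deposited (limma adjusted p = 0.061), with no filter or without replicate 1 or 2 with doxycycline (0.083 to 0.092).

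AIMP2, a scaffold of the multisynthetase complex, fell in both lines. It went from 38.9, 37.4 and 35.6 to 15.9, 17.6 and 16.9 rescaled TPM in LS411N and from 56.3, 53.9 and 54.4 to 24.9, 23.6 and 26.9 in LS411N-BR. The groups were far apart in each line, with log2 fold changes of -1.11 and -1.10 and a difference of 0.01 (SE 0.07, limma adjusted p = 0.95). FARSB, a subunit of the phenylalanine synthetase, rose in both lines, by 0.30 and 0.21 on the log2 scale (in LS411N limma adjusted p = 0.09 as deposited). Of the 16 mitochondrial synthetases tested 9 were lower and none higher in LS411N-BR, with a median of -0.09, and 4 were lower in LS411N. As deposited, 2 were lower and 5 higher in LS411N-BR, with a median of 0.09, and 0 were lower in LS411N.

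Chaperones of the endoplasmic reticulum also moved with doxycycline in LS411N-BR, where 13 of 15 were lower and 1 higher. As deposited, 6 were lower and 1 higher, with a median of -0.06. HSPA5, the main one, rose in LS411N from 146.0 ± 8.28 to 171.8 ± 7.73 rescaled TPM and fell in LS411N-BR from 161.5 ± 3.96 to 136.4 ± 2.83 (difference -0.48, SE 0.07, limma adjusted p = 0.00059). As deposited neither call was made (0.31 and -0.04, limma adjusted p = 0.20 and 0.55), nor that of the difference (limma adjusted p = 0.36). The call in LS411N was also lost in 4 of 6 fits without 1 library (limma adjusted p = 0.054 to 0.063). Of 18 eIF2 kinases, subunits and regulators, 6 were higher and 6 lower in LS411N-BR, each 33.3% and near the shares over all genes. As deposited 10 were higher and 1 lower. EIF2AK4, the kinase that senses uncharged tRNA, rose there by 0.25 on the log2 scale (limma adjusted p = 4.7e-05). Of 14 other enzymes of serine, folate and proline metabolism, 5 were lower and 3 higher in LS411N-BR, and as deposited 3 and 8. PRODH, which breaks down proline, fell in both lines, though in LS411N not as deposited (limma adjusted p = 0.25) or in 3 of 6 fits without 1 library (0.056 to 0.083).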

How the data were processed

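RNA was sequenced from cultured cells of 2 lines, with and without doxycycline, 3 libraries per group. The authors deposited TPM, with a separate table for each line, and every library sums to 1000000. The submitters' processing notes list STAR, DESeq2 and GRCh38 but no roles. How the TPM were computed, and with which annotation and strand setting, are points not given in the sources used here. Read totals are unknown, so counting error cannot be given. TPM were divided by median-of-ratios factors (0.853 to 1.178) over the 14233 genes above 0 in all 12 libraries. A gene entered a fit with 1 rescaled TPM or more in 3 or more of its libraries. Tests were two-sided, with limma 3.58.1 in R 4.3.3 on log2(value + 1) with an intensity trend, each line alone. The difference was the interaction term over all 12 libraries. The fits were tried on simulated data, which did not repeat the rescaling and so cannot judge the choice of scale. Calls needed an adjusted p under 0.05, and a second rule also a 1.5-fold change. Positions came from GENCODE on GRCh38. Members and lists were chosen with earlier results of these data known. Every member is accounted for, and of each other list up to 3 called genes with the smallest adjusted p per comparison, or with a called difference of at least 1.5-fold, could be named. Some of the genes that this rule takes are left out of the text. Alternatives were TPM as deposited, factors within each table, other pseudocounts and filters, no trend, robust moderation, 1 fit over all libraries, a replicate block, leaving out each library, and VARS regrouped.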

Additional observations from a re-analysis of the deposited data

Results flagged for a closer look

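Each value below is the doxycycline effect in LS411N-BR minus that in LS411N on the log2(rescaled TPM + 1) scale, from the limma interaction over 12 libraries with adjusted p under 0.05. These genes drew attention because their response to doxycycline differed between the lines by that test. Among the members the differences were -0.80 for NUPR1, -0.77 for WARS, -0.62 for PSAT1, -0.44 for both DARS and MTHFD2, -0.41 for CEBPB, -0.38 for SHMT2 and -0.37 for SARS. Smaller ones were -0.34 for MARS, -0.31 for VARS, -0.28 for PHGDH, -0.25 for both GARS and EPRS, and -0.20 for NARS. Among genes outside the 39, DDIT4 stood at -0.73, INHBE at -0.65, SLC7A11 and VEGFA at -0.64, GDF15 at -0.61, SLC1A4 at -0.58, CLIC4 and DNAJB9 at -0.50, and PRODH at -0.49. HSPA5 stood at -0.48, XBP1 at -0.47, CTH and LONP1 at -0.44, IMPACT at -0.36, SLC38A2 at -0.30 and PDIA4 at -0.22. Differences above 0 were 0.38 for HMOX1 and 0.26 for EIF2B4. A larger one, 0.49 (limma adjusted p = 0.0073), was that of SLC6A6, which the naming rule does not take. The genes outside the 39 given here are not all those with a called difference. With TPM as deposited WARS was the only member still called. Of the genes outside the 39, DDIT4, INHBE, VEGFA, SLC7A11, HMOX1 and SLC6A6 kept their calls on that scale, and the others named here lost theirs. The calls of HMOX1, SLC38A2, PDIA4 and LONP1 were also lost in several fits without 1 library (limma adjusted p up to 0.11). That of HMOX1 was lost with a pseudocount of 0.1 too (limma adjusted p = 0.2).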

How the results depend on the processing

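Calls made in every setting tried were WARS and DARS lower in LS411N, 11 lower and 4 higher members in LS411N-BR, and WARS for the difference between lines. Setting aside TPM as deposited, 8 differences were called throughout (CEBPB, DARS, MARS, MTHFD2, PSAT1, SARS, SHMT2 and WARS). With TPM as deposited, all genes split into 1100 higher and 387 lower in LS411N, 6351 and 1252 in LS411N-BR, and 162 and 85 for the difference. Members then split into 1 higher and 3 lower in LS411N, with 1 ATF4-driven and 1 other synthetase called, and into 13 higher and 11 lower in LS411N-BR. For the difference 1 member was lower, also by at least 1.5-fold, with 1 ATF4-driven and 0 other synthetases called. In LS411N-BR GARS (0.06), IARS (0.11), NARS (0.11), TARS (0.05), CARS (0.17), ATF4 (0.11) and TRIB3 (0.15) reversed as deposited. The median of all genes moved on that scale as well. In LS411N YARS, HARS, KARS and RARS lost their calls as deposited though their log2 fold changes were larger, at 0.24, 0.34, 0.25 and 0.22. What lies behind each of these shifts was not tested.

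In LS411N no filter left 3 members lower, and 1 fit over all 12 libraries gave 10 higher, 8 lower and 4 ATF4-driven synthetases called. For the difference 1 other synthetase was called with a filter of 5 TPM, which VARS did not pass, and 1 when VARS was regrouped. The cause of the other shifts was not tested. Leaving out 1 library in turn gave, for LS411N, 1357 to 2937 genes higher and 1117 to 2346 lower, 1 to 10 members higher, 2 to 6 lower and 2 to 3 lower by 1.5-fold, 1 to 5 ATF4-driven and 2 to 5 other synthetases called. For LS411N-BR it gave 3364 to 3586 higher and 3118 to 3354 lower, 4 to 5 members higher, 20 to 22 lower and 3 to 5 lower by 1.5-fold, 7 to 8 ATF4-driven and 6 other synthetases. For the difference it gave 265 to 1008 higher and 394 to 1333 lower, 0 to 1 members higher, 8 to 18 lower and 2 to 3 lower by 1.5-fold, 3 to 8 ATF4-driven and 1 to 3 other synthetases.

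The replicate numbers did not pair the libraries: same-numbered deviations correlated by 0.021, -0.016 and 0.182 in LS411N and 0.025, -0.004 and 0.007 in LS411N-BR. With a replicate block 5 members were higher and 5 lower in LS411N, 5 and 22 in LS411N-BR, and 0 and 10 for the difference. Depth is unknown, so the precision of low genes such as ASNS and VARS cannot be given from counts. Of the members 13 overlap a listed gene on the opposite strand, and 12 have a same-named pseudogene in GENCODE. Reads could be split among such genes. Whether those pseudogenes have deposited values was not checked.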
